A study of Mus musculus with 14 samples.

Results

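Corticothalamic and deep-layer identity genes of the mouse neocortex were followed in cells that had taken up a Fezf2 vector or its control. The 10 genes were Tbr1, Tle4, Foxp2, Zfpm2, Sox5, Nr4a2, Nfib, Hs3st4, Ppp1r1b and Nxph4. They were chosen by name, and every probe set that the array annotation pairs with exactly 1 of these symbols was taken. This gave 35 of the 34945 probe sets with 1 symbol, and 10 of the 18193 genes they represent.

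The cells came from CD1 mouse embryos whose lateral ventricle was injected with plasmid DNA at E14.5. Electric pulses drove the DNA into the lining progenitors, which at this stage mainly give rise to upper-layer neurons. The vector was CtrlGFP, which served as the control, or Fezf2GFP, which carries the transcription factor Fezf2. Labelled cells were purified by FACS, that is by their fluorescence, after 24 or 48 h, and their RNA went through 2 rounds of in vitro transcription and was hybridized to Affymetrix arrays. This gave 4 groups, with 3 CtrlGFP and 3 Fezf2GFP arrays at 24 h and 4 of each at 48 h. All 4 groups share the strain, the day of injection, the electroporation and the sort. The labels name neither the promoter of the vectors nor the number of embryos behind an array. Since nothing in the labels assigns the arrays of a group to separate litters, the p-values measure only the spread between these samples, which may be technical.

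Corticothalamic neurons lie mostly in the deepest layer of the neocortex and send their axons to the thalamus, whereas corticospinal and other subcerebral neurons lie in the layer above. Both are born before the upper-layer neurons, and the subplate, a transient sheet beneath them, before both. Their identities are set by transcription factors that restrain one another: TBR1 promotes corticothalamic identity and holds down Fezf2, SOX5 delays subcerebral features in the deepest layer and subplate, and FEZF2 is needed for subcerebral neurons.

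Values are on the log2 scale as deposited, so that a difference of 1 is a doubling, and a probe set below 4 on an array is called dim. Array medians lay between 3.26 and 3.505, and within each group the arrays correlated across genes at 0.942 to 0.9935. Both control arrays with the highest medians, CtrlGFP 24 h replicate 1 and CtrlGFP 48 h replicate 2, stood apart from their groups in the same way, with deviations that correlated at 0.593. Markers of the labelled cell type were present: all 8 radial glia markers and all 6 intermediate progenitor markers were above the filter on dim values, as were all 8 general neuron markers. The single Fezf2 probe set went against the labels. It stood at 11.30 ± 0.42 in CtrlGFP and 9.44 ± 0.11 in Fezf2GFP at 24 h (SD, n = 3 each), and at 10.15 ± 0.48 and 9.33 ± 0.70 at 48 h (SD, n = 4 each). The labels do not say whether the vector carries the stretch that this probe set reads, so every direction below is between arrays as labelled and rests on the labels alone.

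Of the 10 genes, 8 were tested, and Foxp2 and Tle4 were higher in the arrays labelled Fezf2GFP when the vector effect was averaged over both times. Foxp2 rose 2.18-fold and Tle4 2.08-fold. No other member passed in that comparison, and no member passed at 24 h or at 48 h taken alone. For the 7 members above the dim level on all 14 arrays, the Fezf2GFP mean was above the CtrlGFP mean at both times, except for Sox5 and Nfib at 24 h once CtrlGFP 24 h replicate 1 was left out. In sorted bulk samples such as these, fewer cells of a type and less RNA per cell cannot be told apart.

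The model was a limma fit with a mean per group over all 14 arrays and the 10295 genes above the dim level in at least 3 arrays. A member is said to have passed where its Benjamini-Hochberg adjusted p over all these genes was under 0.05. With both times averaged, 2 of the 8 tested members passed, both higher, against 4.79% of all genes tested and 4.01% in that direction. Hs3st4, 1 of the 8, was dim on most arrays and entered the test mainly through the group in which it was high, so unadjusted counts are given over the other 7. Averaged, 4 of these 7 had an unadjusted p under 0.05 (18.1% of all genes). At 24 h 0 of 8 passed (1.06% of all genes), with 3 of the 7 at an unadjusted p under 0.05 (8.85% of all genes). At 48 h 0 of 8 passed (3.13% of all genes), with 3 of the 7 at an unadjusted p under 0.05 (15.2% of all genes). The average over both times contains both single-time comparisons and is not independent of them.

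**Figure D1:**
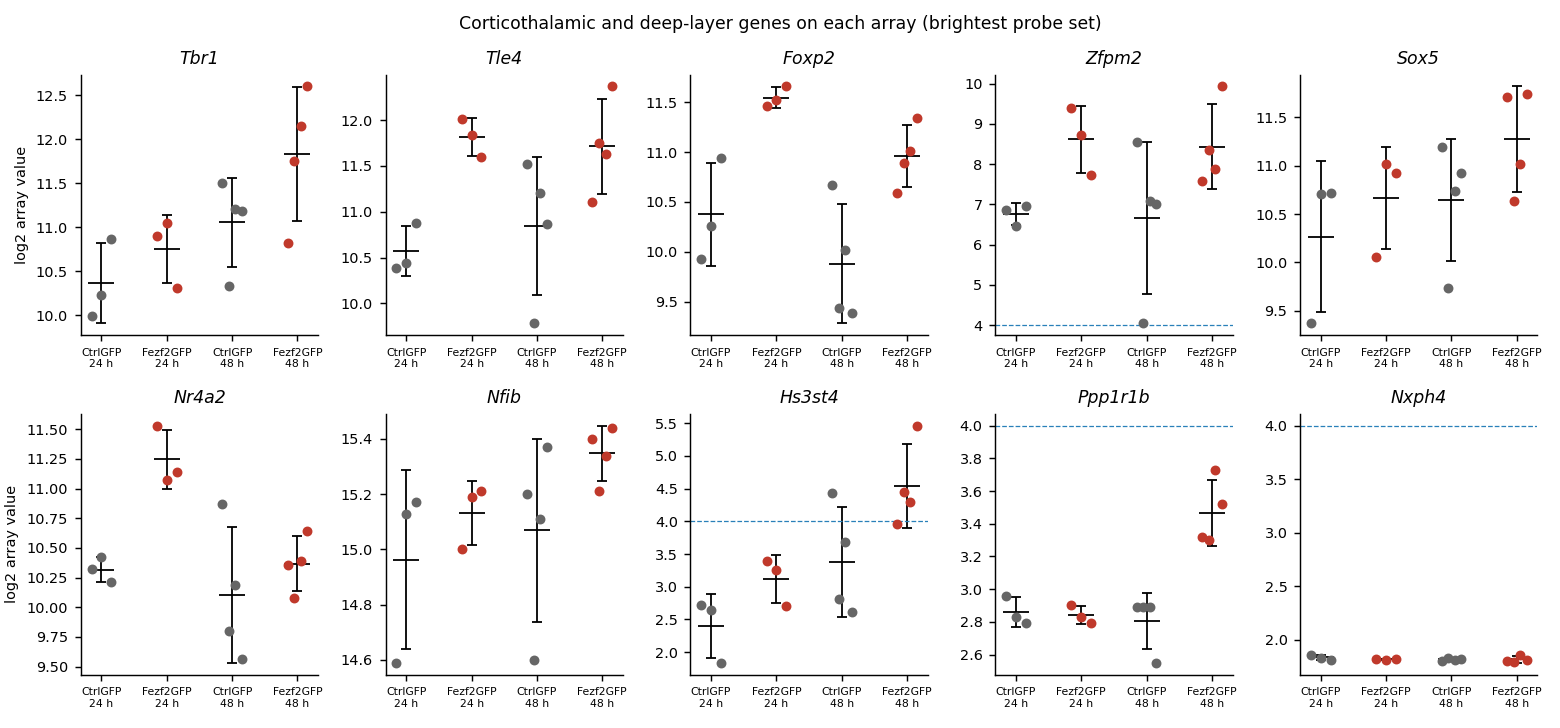
Log2 array value (vertical axis, a separate scale for each gene) of the brightest probe set of each of the 10 genes on the 14 arrays. Grey points are CtrlGFP arrays, red points Fezf2GFP arrays, bars the mean ± SD of a group, and the dashed line, drawn where values approach it, the dim level of 4; the Foxp2 arrays of both vectors are separate at 24 h (9.93 to 10.94 against 11.46 to 11.66) and Nxph4 is dim throughout (1.79 to 1.86).

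Foxp2 encodes a forkhead transcription factor of deep-layer neurons. At 24 h its brightest probe set, 1440108_at, read 9.93, 10.26 and 10.94 on the CtrlGFP arrays and 11.46, 11.52 and 11.66 on the Fezf2GFP arrays. At 48 h it read 10.67, 9.44, 10.02 and 9.39 with CtrlGFP and 10.59, 10.89, 11.01 and 11.34 with Fezf2GFP. The 24 h arrays did not overlap between vectors. At 48 h a single pair crossed, the highest control (replicate 1) lying just above the lowest Fezf2GFP array (replicate 1). The log2 fold change of Foxp2 averaged over both times was 1.12 (SE 0.22, 95% interval 0.64 to 1.60, limma adjusted p = 0.0105). At 24 h alone it was 1.17 (SE 0.34, adjusted p = 0.165), and at 48 h alone 1.08 (SE 0.29, adjusted p = 0.0669). Without both control arrays that stood apart the averaged difference was 0.94 (adjusted p = 0.0416). The 48 h difference passed without CtrlGFP 48 h replicate 1 (1.34, adjusted p = 0.0160).

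Foxp2 was also read by other probe sets, fitted together with all 17407 single-symbol probe sets above the dim level. Of its 6 probe sets 5 were tested, and 4 of these were higher with Fezf2GFP averaged over both times. Beside 1440108_at (adjusted p = 0.0154 in this fit) they were 1438231_at (1.09, adjusted p = 0.0161), 1438232_at (0.91, adjusted p = 0.0133) and 1458191_at (0.58, adjusted p = 0.0484). Of these, 1458191_at lay near the dim level (3.79 to 5.66), with 3 of 4 CtrlGFP 48 h arrays above it. At 48 h alone 1438231_at (1.28, adjusted p = 0.0378) and 1438232_at (1.30, adjusted p = 0.0122) passed. The fifth probe set, 1441365_at, lay near the dim level on every array (3.83 to 4.96) and differed by -0.03 (SE 0.20, adjusted p = 0.94). The sixth, 1422014_at, was dim on all arrays (2.28 to 2.40). Probe sets of 1 gene are read from the same RNA and are not replicates. Over all members 22 of 35 probe sets were tested. With both times averaged 5 of the 22 passed (3.25% of all probe sets tested), the fifth being that of Tle4. At 48 h 2 of 22 passed (2.06% of all probe sets) and at 24 h 0 of 22 (0.695% of all probe sets), with 8 at an unadjusted p under 0.05 (7.49%).

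Tle4 encodes a corepressor of the Groucho family and marks corticothalamic neurons. One of its RefSeq promoter windows, the 250 bases before an annotated start on the minus strand of GRCm38.p6 (chr19:14598184-14598433), is shown because Tle4 is the member of those that passed for which a window was at hand.
Tle4: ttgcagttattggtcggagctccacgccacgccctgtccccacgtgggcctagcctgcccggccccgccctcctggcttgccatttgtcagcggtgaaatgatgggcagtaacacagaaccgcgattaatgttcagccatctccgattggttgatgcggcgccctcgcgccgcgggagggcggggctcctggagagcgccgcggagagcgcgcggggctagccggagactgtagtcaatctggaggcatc
At 24 h Tle4 (probe set 1450853_at) read 10.39, 10.44 and 10.88 with CtrlGFP and 12.01, 11.84 and 11.60 with Fezf2GFP. At 48 h it read 11.52, 9.78, 11.21 and 10.87 with CtrlGFP and 11.11, 11.75, 11.63 and 12.37 with Fezf2GFP. All Fezf2GFP arrays were above all controls at 24 h, while at 48 h the groups overlapped, with CtrlGFP replicate 2 the lowest of all 14 arrays. Averaged, Tle4 differed by 1.06 on the log2 scale (SE 0.26, 95% interval 0.49 to 1.62, limma adjusted p = 0.0360), with 1.24 (SE 0.40, adjusted p = 0.237) at the earlier and 0.87 (SE 0.34, adjusted p = 0.230) at the later time. The remaining probe sets of Tle4, 1425650_at and 1430384_at, were dim on all arrays.

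The call of Tle4 depended on single arrays, while its fold change stayed of similar size. It did not pass without both control arrays that stood apart (0.83, adjusted p = 0.0529). Of the controls, leaving out CtrlGFP 24 h replicate 1 (adjusted p = 0.0822), replicate 2 (0.0880) or replicate 3 (0.0510), or CtrlGFP 48 h replicate 4 (0.0620), ended the call of Tle4. On the other side, leaving out Fezf2GFP 24 h replicate 1 (adjusted p = 0.107), replicate 2 (0.0804) or replicate 3 (0.0537), or at 48 h Fezf2GFP replicate 2 (0.0644), replicate 3 (0.0579) or replicate 4 (0.0646), also ended it. In the 10 fits without 1 of these arrays its log2 fold change was 0.95 to 1.13, and over all 14 such fits 0.88 to 1.17. Foxp2 passed without any 1 of the 14 arrays, with a log2 fold change of 1.01 to 1.27 and an adjusted p of 0.00229 to 0.0325.

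Zfpm2 encodes FOG2, a multi-zinc-finger cofactor of GATA factors found in corticothalamic neurons. Its probe set 1449314_at read 6.87, 6.46 and 6.95 with CtrlGFP and 9.39, 8.72 and 7.73 with Fezf2GFP at 24 h. At 48 h Zfpm2 read 8.54, 4.04, 7.07 and 7.0 with CtrlGFP and 7.57, 8.35, 7.88 and 9.93 with Fezf2GFP. The vectors were separate at 24 h and overlapped at 48 h, where the control arrays spread from next to the dim level to above most Fezf2GFP arrays. Zfpm2 had the highest fold change of the members, 3.51-fold averaged over both times, with an error that kept it from passing (log2 fold change 1.81, SE 0.60, 95% interval 0.52 to 3.10, limma adjusted p = 0.116). It was 1.86 at 24 h (adjusted p = 0.608) and 1.77 at 48 h (adjusted p = 0.297). Without CtrlGFP 48 h replicate 1, the control with the highest reading, Zfpm2 passed (2.13, adjusted p = 0.0424). Without CtrlGFP 48 h replicate 2, the control with the lowest reading, its difference was 0.90 at 48 h and 1.38 averaged, and neither passed.

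Tbr1 encodes a T-box transcription factor of corticothalamic, subplate and Cajal-Retzius neurons. On the 24 h arrays it read 9.99, 10.23 and 10.87 with CtrlGFP and 10.90, 11.05 and 10.31 with Fezf2GFP. On the 48 h arrays Tbr1 read 11.50, 10.33, 11.21 and 11.18 with CtrlGFP and 10.82, 11.75, 12.15 and 12.60 with Fezf2GFP. The vectors overlapped at both times, and the highest readings were those of Fezf2GFP at 48 h. Tbr1 did not pass, with a log2 fold change of 0.39 at 24 h (SE 0.42, adjusted p = 0.781), 0.78 at 48 h (SE 0.37, adjusted p = 0.341) and 0.58 averaged (SE 0.28, 95% interval -0.02 to 1.19, adjusted p = 0.294).

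Sox5 encodes an SRY-related transcription factor of the deepest layer and subplate. Its brightest probe set, 1455535_at, spread over more than 1 log2 unit within 3 of the 4 groups: 9.37 to 10.72 with CtrlGFP and 10.06 to 11.02 with Fezf2GFP at 24 h, and 9.74 to 11.19 and 10.63 to 11.74 at 48 h. The groups overlapped throughout. Averaged over both times Sox5 differed by 0.51 (SE 0.30, limma adjusted p = 0.398). The other 3 tested probe sets of Sox5 gave 0.76 (1423500_a_at, adjusted p = 0.145), 0.94 (1432189_a_at, adjusted p = 0.255) and 0.35 (1440827_x_at, adjusted p = 0.464), and none passed.

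Nfib encodes a nuclear factor I protein needed for deep-layer neurons and for the maturation of radial glia. Its brightest probe set, 1454834_at, was near the upper end of the array scale, between 14.59 and 15.44. It differed little between vectors, by 0.17 at 24 h (SE 0.21) and 0.28 at 48 h (SE 0.18, limma adjusted p = 0.536). The averaged difference was 0.23 (95% interval -0.08 to 0.53). Of the 6 tested Nfib probe sets, 1438244_at stood out at 24 h. It read 6.91, 7.26 and 7.48 with CtrlGFP and 8.77, 9.17 and 9.11 with Fezf2GFP, without overlap (log2 fold change 1.80, SE 0.66, adjusted p = 0.462). At 48 h the same probe set of Nfib read 8.61, 5.76, 7.91 and 9.45 against 7.55, 7.37, 8.07 and 7.91 (-0.20, SE 0.57). This pattern was not seen in the brighter Nfib probe sets, whose 24 h differences ran from -0.04 to 0.36. At 48 h their differences ran from 0.28 to 1.12, the last that of 1434101_at (SE 0.43, limma adjusted p = 0.261). Averaged, they ran from 0.19 to 0.74, and none passed at 48 h or averaged.

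Nr4a2, also known as Nurr1, encodes an orphan nuclear receptor of subplate neurons. Its RefSeq promoter window (GRCm38.p6, minus strand, chr2:57124004-57124253) is shown because Nr4a2 was the 1 member whose brightest probe set passed in a time comparison. The capitals mark a match on the opposite strand to AACAAT, a core sequence bound by SOX factors; the window also overlaps an uncharacterized protein-coding locus in the RefSeq table.
Nr4a2: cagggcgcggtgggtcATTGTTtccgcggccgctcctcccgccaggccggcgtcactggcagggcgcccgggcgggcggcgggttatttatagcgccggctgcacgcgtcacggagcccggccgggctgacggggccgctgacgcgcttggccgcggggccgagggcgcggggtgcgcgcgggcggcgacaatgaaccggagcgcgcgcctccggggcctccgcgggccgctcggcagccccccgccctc
In 24 h cells Nr4a2 (probe set 1455034_at) read 10.32, 10.42 and 10.21 with CtrlGFP and 11.53, 11.07 and 11.14 with Fezf2GFP. In 48 h cells it read 10.87, 9.80, 10.19 and 9.56 with CtrlGFP and 10.36, 10.08, 10.39 and 10.64 with Fezf2GFP. The 24 h Fezf2GFP arrays were above all the others of both times, and the 48 h arrays of both vectors overlapped. The log2 fold change between vectors was 0.93 at 24 h (SE 0.28, 95% interval 0.32 to 1.54, limma adjusted p = 0.204) and 0.26 at 48 h (SE 0.24, 95% interval -0.27 to 0.79, adjusted p = 0.693). Averaged, it was 0.59 (SE 0.19, adjusted p = 0.102), and it passed without CtrlGFP 48 h replicate 1 (0.72, adjusted p = 0.0114). Both other tested probe sets of Nr4a2, 1447863_s_at and 1450750_a_at, also had the larger difference at 24 h (0.88 and 1.15, against 0.58 and 0.53 at 48 h). Neither passed at 24 h (limma adjusted p = 0.551 and 0.572). The change of the difference between the times had an unadjusted p of 0.535 and 0.341 in limma. Of the 2, 1450750_a_at reached down to the dim level (3.91 to 6.42).

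Promoter windows were matched for 5 members, with 6 windows in all. The SOX sequence was found in 9.42% of the 32851 promoters searched on both strands, and 1 match each lay in the printed window of Nr4a2, the window of Tbr1 and the second window of Tle4 (chr19:14597214-14597463, on the opposite strand). The printed window of Tle4 held no match to it or to AGGTGTGA (T-box), AAAGGTCA (NR4A receptors), TTGGCA (nuclear factor I half-site), TGTTTAC (forkhead) or TGACGTCA (the cyclic AMP response element), which were present in 1.12%, 1.34%, 12.3%, 3.17% and 1.55% of promoters. The nuclear factor I half-site had 1 match in the window of Sox5. The full palindrome of nuclear factor I (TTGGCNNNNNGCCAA) was present in 0.0365% of them and in no member window. The GC content was 65.2% in the printed window of Tle4 and 80% in that of Nr4a2, against a median of 52.4% over all promoters. A match describes letters only.

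**Figure D2:**
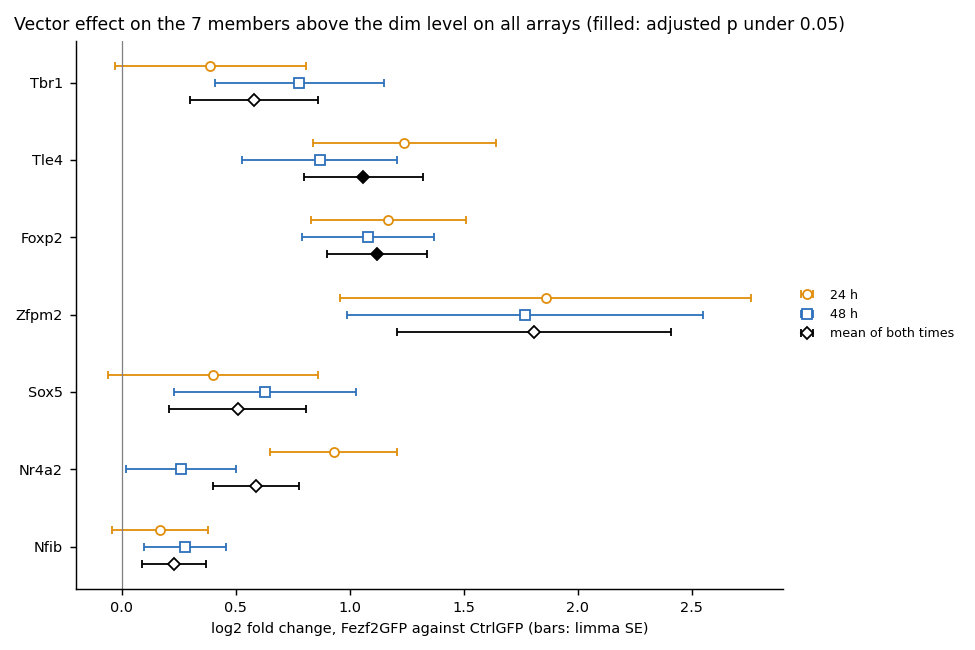
Log2 fold change of Fezf2GFP against CtrlGFP (horizontal axis) for the 7 genes above the dim level on all arrays, at 24 h (circles), at 48 h (squares) and averaged over both times (diamonds), with limma SE as bars and filled symbols for an adjusted p under 0.05. The filled symbols are the averaged values of Tle4 (1.06) and Foxp2 (1.12), and with all 14 arrays every value lies to the right of 0, although Sox5 and Nfib at 24 h do not without CtrlGFP 24 h replicate 1.

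Hs3st4, Ppp1r1b and Nxph4 do not encode transcription factors and were low or dim. Hs3st4 encodes a heparan sulfate sulfotransferase that marks corticothalamic neurons. It was above the dim level on 4 of 14 arrays, 3 of them Fezf2GFP 48 h arrays, and thus entered the test mainly through the group in which it was high. At 24 h all its arrays were dim (1.84 to 2.72 with CtrlGFP, 2.70 to 3.39 with Fezf2GFP), and no fold is given there. At 48 h Hs3st4 read 4.43, 2.81, 3.68 and 2.61 with CtrlGFP and 3.96, 4.44, 4.30 and 5.46 with Fezf2GFP. The vectors overlapped through CtrlGFP replicate 1. Since 3 of the 4 control arrays were dim, no fold is read here either.

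Ppp1r1b encodes DARPP-32, a phosphatase inhibitor regulated by dopamine. It was dim on all 14 arrays and was not tested. Its 48 h readings were 2.89, 2.89, 2.89 and 2.55 with CtrlGFP and 3.32, 3.30, 3.73 and 3.52 with Fezf2GFP. All of its 24 h readings lay between 2.79 and 2.96. All groups were below the dim level, so no difference is read from them. Nxph4, which encodes a neurexophilin and marks subplate and deepest-layer neurons, read between 1.79 and 1.86 on all arrays.

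Over the 7 members that were above the dim level on every array, the median log2 fold change was 0.93 at 24 h, 0.78 at 48 h and 0.59 averaged. Over all genes tested it was 0.06, 0.06 and 0.07. All 7 differences were above 0 at both times, as were 56.4% of all genes at 24 h and 57.3% at 48 h. Without CtrlGFP 24 h replicate 1 the 24 h differences of Sox5 and Nfib were -0.05 and -0.01, so that 5 of the 7 stayed above 0. Foxp2, Tle4, Zfpm2 and Nr4a2 had no overlap between vectors at 24 h, in the higher direction, as did 12.6% of all genes. At 48 h 0 of the 8 were free of overlap, against 7.35% of all genes in the higher direction.

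At 48 h a few arrays lay at the ends of their groups in most members. CtrlGFP 48 h replicate 1 was the highest of its group in 7 of the 8 tested members, with Nfib the exception. CtrlGFP 48 h replicate 2 was the lowest of the same group in 5 of 8. Among the Fezf2GFP 48 h arrays, replicate 4 was the highest in 8 of 8 and replicate 1 the lowest in 5. Without CtrlGFP 48 h replicate 1 Zfpm2 and Nr4a2 passed beside Foxp2 and Tle4 with both times averaged. These deviations were shared across members of a group, so the members are not independent readings of the vector effect.

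**Figure D3:**
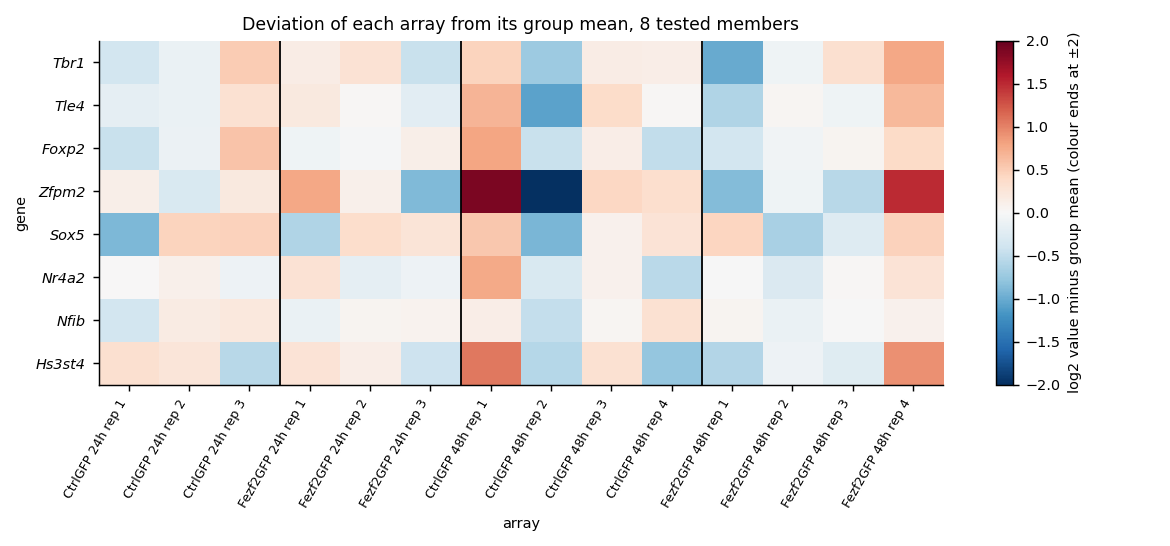
Deviation of each array (columns, 4 groups parted by lines) from its group mean in log2 units for the 8 tested genes (rows), red above and blue below the mean, with colours ending at ±2. The Fezf2GFP 48 h replicate 4 column is above its group mean in every row, and the CtrlGFP 48 h columns of replicates 1 and 2 run in opposite directions.

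No member had a vector effect that differed between the times. For the difference between the effects, 0 of 8 members passed (0.0971% of all genes), and 0 had an unadjusted p under 0.05 in limma (4.94% of all genes). The difference of Nr4a2, the member with the lowest p, was -0.67 (SE 0.37, 95% interval -1.48 to 0.14, adjusted p = 0.998). That of Foxp2 was -0.09 (95% interval -1.05 to 0.87), an interval that holds changes of a doubling or near it in either direction.

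Between 24 and 48 h, Nr4a2 fell in the arrays labelled Fezf2GFP. Its 48 h arrays (10.08 to 10.64) were all below its 24 h arrays (11.07 to 11.53), and it fell by 0.88 on the log2 scale (SE 0.26, limma adjusted p = 0.0474). It was the 1 member of 8 that passed in this comparison (12.1% of all genes), a share near the background, while 2 of the 7 without Hs3st4 had an unadjusted p under 0.05 (24.4% of all genes). In the arrays labelled CtrlGFP Nr4a2 stood at -0.21 (SE 0.26, adjusted p = 0.724), where 0 of 8 members passed (12.6% of all genes) and 0 of the 7 had an unadjusted p under 0.05 in limma (24.1% of all genes). The fall of Nr4a2 did not pass without CtrlGFP 24 h replicate 1 (adjusted p = 0.0531), replicate 2 (0.0645) or replicate 3 (0.0616), or CtrlGFP 48 h replicate 3 (0.0629). Nor did it pass without Fezf2GFP 24 h replicate 1 (0.168), replicate 2 (0.0938) or replicate 3 (0.112), or at 48 h Fezf2GFP replicate 1 (0.0861), replicate 2 (0.118) or replicate 3 (0.0884). Its log2 fold change ran from -0.97 to -0.74 over all 14 fits without 1 array. In the fit over all probe sets it was not called (adjusted p = 0.0616), and 1447863_s_at and 1450750_a_at gave -0.49 and -0.64 (adjusted p = 0.459 and 0.472).

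The other members split in their course in the arrays labelled Fezf2GFP. Nfib lay higher at 48 h without overlap (13.3% of all genes) and Foxp2 and Nr4a2 lower (12.9% of all genes). The difference of Foxp2 did not pass (-0.59, SE 0.31, limma adjusted p = 0.279). Its probe set 1458191_at, near the dim level (4.28 to 5.66 with Fezf2GFP), fell by 1.00 (SE 0.21, adjusted p = 0.00906). In the arrays labelled CtrlGFP the Foxp2 probe set 1438232_at fell by 0.93 (SE 0.25, adjusted p = 0.0346), while the brightest one stood at -0.50 (adjusted p = 0.387). Each of these was 1 of 22 member probe sets to pass, against 8.76% and 9.49% of all probe sets. Tbr1 stood at 1.08 with Fezf2GFP (SE 0.40, adjusted p = 0.104) and 0.69 with CtrlGFP (SE 0.40, adjusted p = 0.328). It passed with Fezf2GFP without Fezf2GFP 48 h replicate 1 (1.42, adjusted p = 0.0218). Hs3st4, dim on all 24 h arrays, was at least 1.46-fold higher at 48 h with Fezf2GFP and did not pass (limma adjusted p = 0.0550); the filter admitted it through that group, so nothing is read from this direction. Tle4 (-0.10 with Fezf2GFP, 0.27 with CtrlGFP) and Zfpm2 (-0.18 and -0.10) gave differences under their SE. The time comparisons use the same arrays as the vector comparisons and are not separate evidence of them.

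The full order of the 4 group means was not shared by all members. Tle4, Foxp2, Zfpm2 and Nr4a2 were highest with Fezf2GFP at 24 h, and Tbr1, Sox5 and Nfib with Fezf2GFP at 48 h. Hs3st4 is left aside, since the filter admitted it mainly through its highest group. The lowest mean of each other tested member was that of a control group. This was the 24 h group for Tbr1, Tle4, Sox5 and Nfib and the 48 h group for Foxp2, Zfpm2 and Nr4a2. Most neighbouring groups in these orders overlapped. The exceptions were the highest group of Foxp2, Nr4a2 and Nfib, which lay wholly above the next, and the lower pair of Zfpm2 groups, whose upper neighbour, CtrlGFP at 24 h, lay wholly below Fezf2GFP at 48 h.

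**Figure D4:**
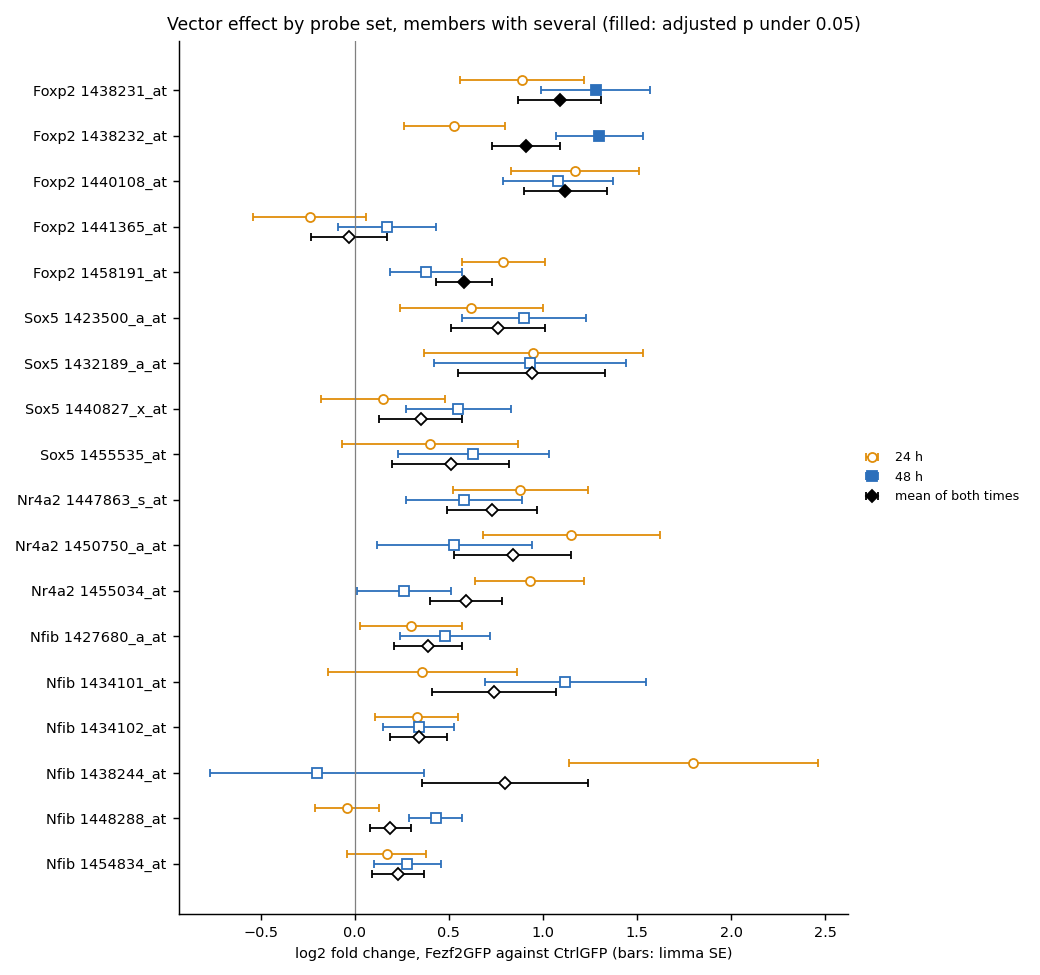
Log2 fold change of Fezf2GFP against CtrlGFP (horizontal axis) for each tested probe set of Foxp2, Sox5, Nr4a2 and Nfib at 24 h (circles), 48 h (squares) and averaged (diamonds), with limma SE as bars and filled symbols for an adjusted p under 0.05. Filled symbols occur in Foxp2 alone among these 4 genes, where 4 of 5 averaged values passed and 1441365_at, near the dim level, stands at -0.03.

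Most of the tested members had a long gene body. Of the 8 tested members 6 spanned more than the median of all tested genes in the RefSeq table (25296 bp), and their own median was 316601 bp. Tbr1 (11252 bp) and Nr4a2 (17174 bp) were shorter, as were the untested Ppp1r1b (9391 bp) and Nxph4 (9087 bp). Across 10268 genes the vector's fold change rose with gene span, with Spearman's rho of 0.269 at 24 h, 0.281 at 48 h and 0.319 averaged; genes are not independent replicates. With that trend removed from each array Foxp2 (1.08, limma adjusted p = 0.0109) and Tle4 (1.03, adjusted p = 0.0336) still passed.

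For each member the 3 genes of most similar profile were found by the root mean square difference over the 14 arrays after each gene was centred on its own mean. Foxp2 was closest to Rprm (0.19 log2 units), a deepest-layer marker, then Id4 (0.28) and Lratd2 (0.31), against its own spread of 0.72. Tle4 was closest to Dnajb14 (0.24), Tnc (0.25) and Aldh5a1 (0.30), and Tbr1 to Gprin1, Apc2 (0.25 each) and Micu3 (0.27). Nr4a2 was closest to Dlx5 (0.27), a marker of GABAergic neurons near the dim level (3.71 to 5.44), and Sox5 to Dynll2 (0.24). For Nfib, with little spread of its own (0.25), the difference to Fem1b was 0.08. Zfpm2, with the largest spread of its own among the members (1.39), was closest to Gabra4 at 0.58. Between members the smallest differences were those of Sox5 and Nfib (0.42), Foxp2 and Nr4a2 (0.43) and Tle4 and Foxp2 (0.44). None of these differences was scaled to the spread of the genes, so their sizes do not rank likeness between genes of unlike spread.

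Among 16 other deep-layer, corticothalamic and subplate genes, 11 were tested and 4 rose in the arrays labelled Fezf2GFP, averaged over both times, with 0 lower (4.79% of all genes tested, 4.01% higher). These were Tmem163, Wnt7b, Lmo3 and Rprm. Wnt7b, a secreted Wnt ligand of deep layers, rose by 1.39 (SE 0.17, limma adjusted p = 0.000497), Tmem163, a zinc-transporting membrane protein, by 1.5 (SE 0.23, adjusted p = 0.00203), and Lmo3, a LIM-only cofactor, by 1.32 (SE 0.22, adjusted p = 0.00363). Rprm, which encodes the cell cycle inhibitor reprimo, rose by 0.97 (SE 0.20, adjusted p = 0.0138). At 24 h Tmem163 passed (1.67, adjusted p = 0.0404). At 48 h Lmo3 (2.45, adjusted p = 0.000481), Wnt7b (2.04, adjusted p = 0.000332) and Tmem163 (1.33, adjusted p = 0.0326) passed. The difference between the effects at both times was not called for Lmo3, Wnt7b or Tmem163 (limma adjusted p = 0.11, 0.442 and 0.998). The averaged rises of all 4, and the 48 h rises of Lmo3 and Wnt7b, passed in 14 of 14 fits without 1 array, whereas Tmem163 passed in 4 of 14 at 24 h and in 7 of 14 at 48 h. The median of the 11 was 0.43 at 24 h, 0.77 at 48 h and 0.79 averaged, and all 11 averaged differences were above 0, as for 59.2% of all genes. Syt6, Cplx3, Galr1, Moxd1 and Nxph3, markers of mature deep-layer and subplate neurons, were dim on all 14 arrays, as were Ppp1r1b and Nxph4.

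**Figure D5:**
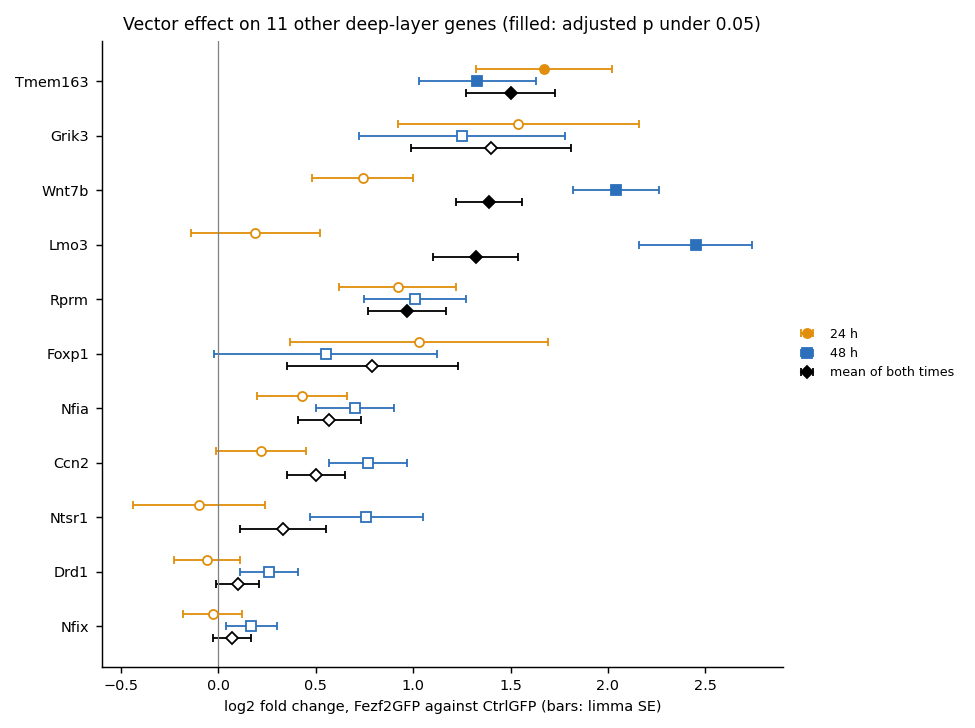
Log2 fold change of Fezf2GFP against CtrlGFP (horizontal axis) for 11 other deep-layer genes at 24 h (circles), 48 h (squares) and averaged (diamonds), with limma SE as bars and filled symbols for an adjusted p under 0.05. Wnt7b and Lmo3 stand at 2.04 and 2.45 at 48 h, above their 24 h values of 0.74 and 0.19. The difference between the times was not called for either gene (limma adjusted p = 0.442 and 0.11).

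Corticospinal and subcerebral genes belong to the neighbouring identity. Of 10 tested, 4 rose averaged over both times (Bcl11b by 1.03, adjusted p = 0.0175, with Cntn6, Crym and Ldb2) and Fezf2 fell by 1.34 (SE 0.25, limma adjusted p = 0.00762), while 5 did not pass, among them Igfbp4 (0.05), Opn3 (-0.12) and S100a10 (0.44); of all genes tested 4.79% passed. Without 1 array Bcl11b and Cntn6 passed in 14 of 14 fits, Ldb2 in 11 and Crym in 10. Of 8 callosal and upper-layer genes tested, 2 rose averaged (Inhba by 0.84 and Dkk3 by 1.01) and 0 fell. These averaged calls held in 4 and 1 of 14 fits without 1 array. At 48 h alone the same 2 passed, both higher, and 0 lower (3.13% of all genes). There Inhba rose by 1.59 (limma adjusted p = 0.00859) and Dkk3 by 1.71 (adjusted p = 0.0191). The 48 h calls held in 14 and 12 of 14 fits without 1 array. Cux1 and Cux2, upper-layer transcription factors, were named here after their values were seen. At 48 h Cux1 (-1.91, limma adjusted p = 0.0523) and Cux2 (-0.98, adjusted p = 0.0769) lay lower and did not pass. Over the alternatives the 48 h difference ran from -2.30 to -0.52 for Cux1 and from -1.15 to -0.65 for Cux2.

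Markers of other cells were read on the same arrays. None of the 8 general neuron markers passed in a vector comparison. Single markers moved in both directions, with 6 of 8 above 0 at 24 h (56.4% of all genes). At that time Stmn2 stood at 1.77 (limma adjusted p = 0.114) and Rbfox3 at -0.79 (adjusted p = 0.612). A sum over the markers is led by the brightest of them and does not show such shifts. The summed signal of the 8 ran from 15.82 to 16.20 with CtrlGFP and 16.19 to 16.23 with Fezf2GFP at 24 h. At 48 h it ran from 16.37 to 16.69 and 16.51 to 16.73, in log2 units. Of 8 radial glia markers Nes rose (0.99, limma adjusted p = 0.00288, but 0.36 and 0.676 with the median over its probe sets), with sums of 16.32 to 16.43 and 16.21 to 16.44 at 24 h and 15.71 to 16.02 and 15.58 to 16.20 at 48 h. Of 6 intermediate progenitor markers Gadd45g fell by 1.38 (adjusted p = 0.0010), with sums of 16.16 to 16.28 and 15.88 to 16.12, then 15.51 to 15.82 and 15.62 to 15.81.

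Cajal-Retzius cells, early-born neurons of the marginal zone, also make Tbr1. Of 6 markers 3 were tested. Reln rose averaged over both times (2.03, limma adjusted p = 0.0267), in 8 of 14 fits without 1 array. Calb2 was dim on all CtrlGFP arrays and all 24 h Fezf2GFP arrays and read 5.64 to 8.52 with Fezf2GFP at 48 h. It thus entered the test only through the group in which it was high, so its call is not read as support. The defining markers Trp73 and Lhx5 were dim on all arrays. Summed signals were 9.03 to 10.38 with CtrlGFP and 10.46 to 11.12 with Fezf2GFP at 24 h, and 7.37 to 10.06 and 10.86 to 11.94 at 48 h, without overlap between vectors. Of 7 GABAergic markers 0 passed in a vector comparison, with sums of 7.08 to 7.35 and 6.98 to 10.66 at 24 h and 7.68 to 10.47 and 9.31 to 10.35 at 48 h. Their log2 fold changes had a median of 1.25 at 24 h, 0.71 at 48 h and 0.98 averaged. Above 0 were 7 of 7 at 24 h, 6 at 48 h and 7 averaged, as were 56.4%, 57.3% and 59.2% of all genes. Dlx1, Lhx6 and Slc32a1 were dim on all CtrlGFP 24 h arrays. Of 4 endothelial and 6 microglial markers 3 and 5 were dim on all arrays, as were both red cell markers with a probe set. The part of these cells in the levels of the members was not tested.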

How the data were processed

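Expression was measured on 14 Affymetrix arrays of sorted cortical cells. The values were used as deposited by the authors, on the log2 scale; the submitters' processing notes name GCRMA, with no version. GCRMA shrinks dim probe sets towards a common floor, so differences below the dim level are not read as folds. The table holds 45037 probe sets, from 0.43 to 16.47; the platform annotation pairs 34945 with 1 symbol, 932 with several and 9160 with none. Groups came from the labels, and 0 value columns were without a sample.

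For each symbol the probe set with the highest mean was taken, and 10295 genes above 4 on at least 3 of 14 arrays were tested; 7898 were dim. Models were fitted with limma 3.58.1 (lmFit, eBayes) in R 4.3.3, with 4 group means over all arrays, 10 residual degrees of freedom, Benjamini-Hochberg adjustment and a threshold of 0.05. Compared were Fezf2GFP and CtrlGFP at 24 h, at 48 h and averaged, the difference between both effects, and 48 h against 24 h with each vector. A second fit used all 17407 single-symbol probe sets above the same filter. Errors of fold changes are SE, those of levels SD. Where all arrays of a group were dim, a fold is a lower bound against the dim level, written "at least". The scripts were tested on simulated data. The number of arrays limits the precision.

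The members and gene lists were chosen with earlier results of these data known, so list counts and medians are descriptions. Named were all members with some of their probe sets, the other deep-layer genes that passed and the 3 nearest profiles. Of the 35 member probe sets 13 did not pass the filter on dim values and were not tested. Also named were the 2 genes of smallest averaged p of other lists where needed, and the genes that passed in the corticospinal list. Cux1 and Cux2 were chosen after their values were seen. Promoters and gene spans are from RefSeq, GRCm38.p6, while no build is stated for the array annotation. Alternatives were no filter or a dim level of 6, quantile normalization, median centring, only the groups compared, array weights, an intensity trend, the median over probe sets, removal of the span trend, a replicate block, and leaving out arrays. The median without Hs3st4 was added after seeing the data.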

Additional observations from a re-analysis of the deposited data

Results flagged for a closer look

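Ppp1r1b, in CtrlGFP 48 h replicate 4, read 2.55, below the other 3 arrays of its group, of which the nearest read 2.89. The gap was 0.972 of the range of the group, and it drew attention as a sample far from the others. All 4 values were below the dim level of 4. The brightest probe sets of the members gave 20 groups of 4 arrays to look at, of which chance alone sets apart about 1 in 20.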

How the results depend on the processing

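The averaged rise of Foxp2 passed in 24 of 24 alternatives (log2 fold change 0.85 to 1.27, adjusted p 0.00108 to 0.0416); its probe set 1441365_at, near the dim level, alone turned the sign (-0.035). The averaged rise of Tle4 passed in 10 of 23 and was lost with no filter (adjusted p = 0.0875); with the median over probe sets Tle4 was dim and gave no value. The fall of Nr4a2 with Fezf2GFP passed in 11 of 25. Of 8 members, the count that passed averaged over both times was 2. It became 1 with no filter, with the median over probe sets, with the replicate block and without both control arrays that stood apart, and 4 with array weights, whose estimate stopped before its tolerance. Leaving out 1 array gave 1 to 5, the 5 with Hs3st4. At 48 h the count of 0 became 1 with no filter (Ppp1r1b, dim in both groups) and with the median over probe sets (Foxp2), and 0 to 1 without 1 array; at 24 h it became 4 with array weights, and stayed 0 without any 1 array. For 48 h against 24 h the control count of 0 became 3 with array weights. The Fezf2GFP count of 1 became 0 with median centring, with the median over probe sets and with the replicate block, 2 with only the groups compared and without both control arrays that stood apart, 3 with array weights, and 0 to 2 without 1 array. Medians of the members moved by no more than the spread between single arrays (0.42) in 153 of 154 fits. That bound is wide beside the vector medians of the 8 members (0.77 to 0.82), so this count says little about how stable they are. The control time median (0.19) ran from -0.055 to 0.655 without 1 array. Causes were not tested.

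Same-numbered arrays of both vectors had deviations that correlated at 0.318, 0.223 and -0.006 at 24 h and at -0.056, 0.286, 0.015 and 0.269 at 48 h, so the numbers were not taken as pairs. With the replicate block Foxp2 passed (1.12, adjusted p = 0.0402), Tle4 did not (1.06, adjusted p = 0.0874), and Nr4a2 with time did not (-0.83, adjusted p = 0.0815).

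Over all genes, 109 passed at 24 h, 322 at 48 h, 493 averaged, 10 for the difference of effects, 1294 for time in controls and 1241 with Fezf2GFP. Array weights gave 2030, 550, 1316, 240, 3077 and 3133. Only the groups compared gave 63, 168 and 797 (24 h, 48 h, time in controls); the median over probe sets 68 and 213 (24 h, 48 h); the replicate block 211 and 0 (48 h, difference); a dim level of 6 gave 4 (difference). Without 1 array the ranges were 50 to 165, 188 to 378, 285 to 505, 0 to 12, 911 to 1446 and 629 to 1435. Signal over background limits Hs3st4, Ppp1r1b and Nxph4, and 3 or 4 arrays a group limit every comparison.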
